A study of Mus musculus with 12 samples.

Results

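Hmgcs1, Idi1, Fdps, Fdft1, Sqle, Lss, Cyp51 and Dhcr7 are 8 enzyme genes of cholesterol synthesis, chosen by name and not by their values. Each had a probe set with a single gene symbol, and all 8 were among the 19938 genes named on the arrays. RNA levels came from 12 arrays of newborn mouse forebrain, taken on postnatal day 0, with 3 mice in each of 4 genotypes. Control mice were Ctnnb1(ex3)Fl/+SmoM2Fl/+ without Cre. GB mice were hGFAP-cre::Ctnnb1(ex3)Fl/+, and Cre removes exon 3 of Ctnnb1 to leave a beta-catenin that escapes degradation and drives WNT target genes. GS mice were hGFAP-cre::SmoM2Fl/+ and carried SmoM2, a Smoothened that signals without ligand in the sonic hedgehog (SHH) pathway. GBS mice were hGFAP-cre::Ctnnb1(ex3)Fl/+SmoM2Fl/+, carried both alleles, and gave tumor tissue, per the labels. The hGFAP promoter drives Cre in radial glia and their descendants, so other cells of the forebrain keep unrecombined alleles, and only Control mice lack Cre.

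Cells build cholesterol from acetyl-CoA through mevalonate, isoprenoids, squalene and lanosterol. The enzymes are controlled together by SREBP2, a transcription factor held in the endoplasmic reticulum by SCAP and the INSIG proteins until sterols run low. The newborn brain makes its own cholesterol because the blood-brain barrier keeps out lipoproteins. Cholesterol also matters to SHH signalling, where it is attached to the ligand and binds Smoothened.

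None of the 8 enzymes passed the test in any of the 7 comparisons made among the genotypes. The highest group mean lay in GS for Hmgcs1, Idi1, Fdps, Fdft1 and Sqle, in GBS for Cyp51, in GB for Lss and in Control for Dhcr7. Hmgcs1, Idi1, Fdft1, Sqle and Cyp51 moved together from array to array over a wide range, while Fdps, Lss and Dhcr7 hardly moved. This division was made after the values were seen and is a description. 

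The table holds log2 values made by RMA, a method that corrects background, normalizes arrays against each other and summarises probes. Array medians ran from 6.52 to 6.69. Over the 14195 genes tested, GB replicate 2 correlated with the other GB arrays at only 0.616 and 0.586, while all other pairs of arrays within a group lay between 0.903 and 0.986. GB replicate 2, GS replicate 3 and Control replicate 3 deviated from their group means in a shared direction (correlations across genes 0.739 to 0.833). On these 3 arrays the olfactory and vomeronasal receptor genes, which belong to sensory epithelia and not to forebrain, had medians of 5.35, 5.23 and 5.23, against 4.84 to 5.17 on the other 9. The mean of 10 neuronal marker genes was 8.05 on GB replicate 2 against 9.33 and 9.45 on the other GB arrays, 8.94 on GS replicate 3 against 9.78 and 9.80, and 9.12 on Control replicate 3 against 9.47 and 9.40. The mean of the progenitor markers was also the lowest of its group on each of these 3 arrays (7.28 on GB replicate 2 against 7.64 and 7.81). The means of microglia and macrophage markers and of oligodendrocyte lineage markers were the highest there (7.33 and 7.26 on GB replicate 2). Xist, which marks females, was high on replicates 2 and 3 of GB and of GS alone. All 10 neuronal markers and 8 of 10 progenitor markers lay above the filter on dim genes. The labels call the samples biological replicates but do not give litters, and p-values measure the spread between these mice. The tissue is a mixture, so fewer cells of a type and less RNA per cell cannot be told apart.

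The upstream sequences of the enzymes are shown because SREBP2 acts through short elements close to the start of its target genes. A RefSeq table of assembly GRCm38.p6 held a start for Hmgcs1, Idi1, Lss, Cyp51 and Dhcr7, 5 of the 8; Sqle, Fdps and Fdft1 were not in it. The 250 bases before the start follow for 3 enzymes that moved together and for Lss, which did not, read 5′ to 3′ on the strand of the gene. Capitals mark the sterol regulatory element consensus TCACNCCAC and the CCAAT box, to which NF-Y, a partner of SREBP, binds, on either strand.
Hmgcs1, chr13:119690101-119690350, plus strand: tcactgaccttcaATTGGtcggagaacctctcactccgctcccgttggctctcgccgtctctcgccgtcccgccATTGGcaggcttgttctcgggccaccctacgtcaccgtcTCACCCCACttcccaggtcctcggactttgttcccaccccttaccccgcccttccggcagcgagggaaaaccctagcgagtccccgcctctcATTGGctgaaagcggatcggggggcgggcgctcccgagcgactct
Idi1, chr13:8885356-8885605, plus strand: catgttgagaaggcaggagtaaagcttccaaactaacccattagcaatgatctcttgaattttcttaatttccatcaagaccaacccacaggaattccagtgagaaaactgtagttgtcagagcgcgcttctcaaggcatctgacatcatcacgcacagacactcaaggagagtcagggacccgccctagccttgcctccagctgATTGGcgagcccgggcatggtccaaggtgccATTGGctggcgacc
Cyp51, chr5:4104698-4104947, minus strand: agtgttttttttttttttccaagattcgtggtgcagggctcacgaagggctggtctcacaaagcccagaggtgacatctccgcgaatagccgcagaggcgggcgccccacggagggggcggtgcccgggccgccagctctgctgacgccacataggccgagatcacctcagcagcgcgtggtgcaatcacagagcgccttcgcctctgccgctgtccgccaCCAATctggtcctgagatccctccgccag
Lss, chr10:76531355-76531604, plus strand: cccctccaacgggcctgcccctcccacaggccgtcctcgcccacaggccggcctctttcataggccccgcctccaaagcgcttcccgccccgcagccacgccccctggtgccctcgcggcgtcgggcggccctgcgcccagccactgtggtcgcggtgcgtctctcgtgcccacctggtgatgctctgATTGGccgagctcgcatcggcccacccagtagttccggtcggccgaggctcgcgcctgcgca
Hmgcs1 held the consensus TCACCCCAC, starting 137 bases before its start, and 3 CCAAT boxes at 237, 176 and 45 bases. Idi1 held 2 CCAAT boxes at 45 and 14 bases, Cyp51 held 1 at 29 bases and Lss held 1 at 62 bases, and none of these 3 had the consensus in this window. Only exact matches to TCACNCCAC were sought, so elements that differ from it in any fixed base were not covered. Dhcr7 has 3 annotated starts, of which 1 had CCAAT boxes (2 of them) and none had the consensus. Among the 32851 windows of the same length in the table, 1.05% held TCACNCCAC and 33.8% held CCAAT on either strand. The GC box GGGCGG, where Sp1 binds, was present upstream of Hmgcs1, Idi1, Lss and Cyp51 and in 32.7% of all windows. Dhcr7 held 1 GC box before its first start, 0 before the next and 3 before the last. A CCAAT box was thus found both upstream of enzymes that moved together and upstream of Lss.

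Hmgcs1 makes HMG-CoA, an early intermediate of the pathway. Its log2 values were 8.69, 8.38 and 7.96 in Control replicates 1 to 3, 8.39, 7.10 and 8.48 in GB, 9.09, 9.14 and 8.24 in GS, and 8.33, 8.42 and 8.43 in GBS. GS replicates 1 and 2 were the highest of all arrays, GB replicate 2 the lowest, and the GBS arrays lay close together. The ranges of all groups overlapped, and GS minus Control was 0.48 ± 0.354 (SE; 95% interval -0.30 to 1.26; adjusted p = 0.645). GBS minus Control was 0.05 ± 0.354 (SE; interval -0.73 to 0.83; adjusted p = 0.917), an interval that holds changes of 1.5-fold in both directions.

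Idi1, the isomerase that prepares the isoprenoid building blocks, had the largest difference between GS and Control. It measured 6.18, 6.07 and 5.94 in Control, 5.98, 5.67 and 6.05 in GB, 6.96, 7.05 and 6.26 in GS, and 6.29, 6.75 and 6.10 in GBS. All GS arrays lay above all Control and GB arrays, but GS replicate 3 was close to the highest Control array. GS minus Control was 0.70 ± 0.219 (SE), or 1.62-fold, with an unadjusted p = 0.00885 and an adjusted p = 0.645. Idi1 exceeded the limit for dim genes on only 4 arrays, all of GS or GBS, so it entered the test through the groups where it was high. A second Idi1 probe set ranked the genotypes in the same order, from 5.72 (GB) through 5.82 (Control) and 6.22 (GBS) to 6.52 (GS).

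Fdps, which joins isoprenoid units into farnesyl diphosphate, varied little. Its values were 7.41, 7.32 and 7.18 in Control, 7.41, 7.12 and 7.24 in GB, 7.39, 7.44 and 7.23 in GS, and 7.06, 7.20 and 7.14 in GBS. All GBS arrays lay below all GS arrays. GBS minus GS was -0.22 ± 0.104 (SE; interval -0.45 to 0.01; adjusted p = 0.288).

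Fdft1, squalene synthase, takes the first step that leads only to sterols. It measured 8.69, 8.61 and 8.22 in Control, 8.49, 7.15 and 8.40 in GB, 9.13, 9.04 and 8.54 in GS, and 8.48, 8.48 and 8.53 in GBS. GS arrays lay above all GB and GBS arrays and overlapped with Control, and GB replicate 2 was far below every other array. GS minus GB was 0.89 ± 0.306 (SE; unadjusted p = 0.0144, adjusted p = 0.486), and GBS minus GS was -0.41 ± 0.306 (SE; adjusted p = 0.538). A second Fdft1 probe set ran from a mean of 7.50 (GB) through 7.84 (Control) and 7.88 (GBS) to 8.24 (GS).

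Sqle, squalene epoxidase, adds the oxygen needed to close the sterol rings and is a rate-limiting step. It measured 7.74, 7.63 and 7.34 in Control, 7.65, 6.87 and 7.68 in GB, 8.12, 8.08 and 7.44 in GS, and 7.77, 8.0 and 7.68 in GBS. GBS arrays lay just above all GB arrays, with the lowest GBS and the highest GB array both at 7.68, and overlapped with Control and GS. GBS minus GB was 0.41 ± 0.238 (SE; adjusted p = 0.187), and GS minus Control was 0.31 ± 0.238 (SE; adjusted p = 0.646).

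Lss, lanosterol synthase, which closes the rings, was the flattest of the enzymes. It ran from 6.45 to 6.62 over all 12 arrays, and the Control mean was 6.53 ± 0.0168 (SD, n = 3), with 6.54 ± 0.085 for GB, 6.52 ± 0.0301 for GS and 6.48 ± 0.0348 for GBS. The interval of GBS minus Control, -0.21 to 0.12, leaves out changes of 1.5-fold in either direction in the measured signal. That signal was dim, with a mean of 6.51 over the arrays, below every array median (6.52 to 6.69). Whether so dim a probe set would show a change in RNA was not tested.

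Cyp51, which removes a methyl group from lanosterol, was the enzyme with the largest difference between the tumors and Control. It measured 7.74, 7.79 and 7.23 in Control, 7.71, 6.74 and 7.84 in GB, 8.36, 8.29 and 7.56 in GS, and 8.06, 8.44 and 8.02 in GBS. All GBS arrays lay above all Control and all GB arrays, while GS overlapped with every group. GBS minus Control was 0.59 ± 0.301 (SE), or 1.501-fold, with a 95% interval of -0.08 to 1.25 and an adjusted p = 0.162. GBS minus GB was 0.74 ± 0.301 (SE; adjusted p = 0.0968).

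Dhcr7, which makes cholesterol in the last step from 7-dehydrocholesterol, had its lowest mean in GBS, as did Fdps and Lss. Dhcr7 measured 6.93, 6.84 and 6.94 in Control, 6.60, 7.06 and 6.81 in GB, 6.87, 6.84 and 6.92 in GS, and 6.57, 6.64 and 6.64 in GBS. All GBS arrays lay below all Control and GS arrays and overlapped with GB. GBS minus Control was -0.28 ± 0.108 (SE; unadjusted p = 0.0237, adjusted p = 0.0896), and GBS minus GS was -0.26 ± 0.108 (SE; adjusted p = 0.223). The median difference of all tested genes between GBS and Control was -0.10.

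**Figure D1:**
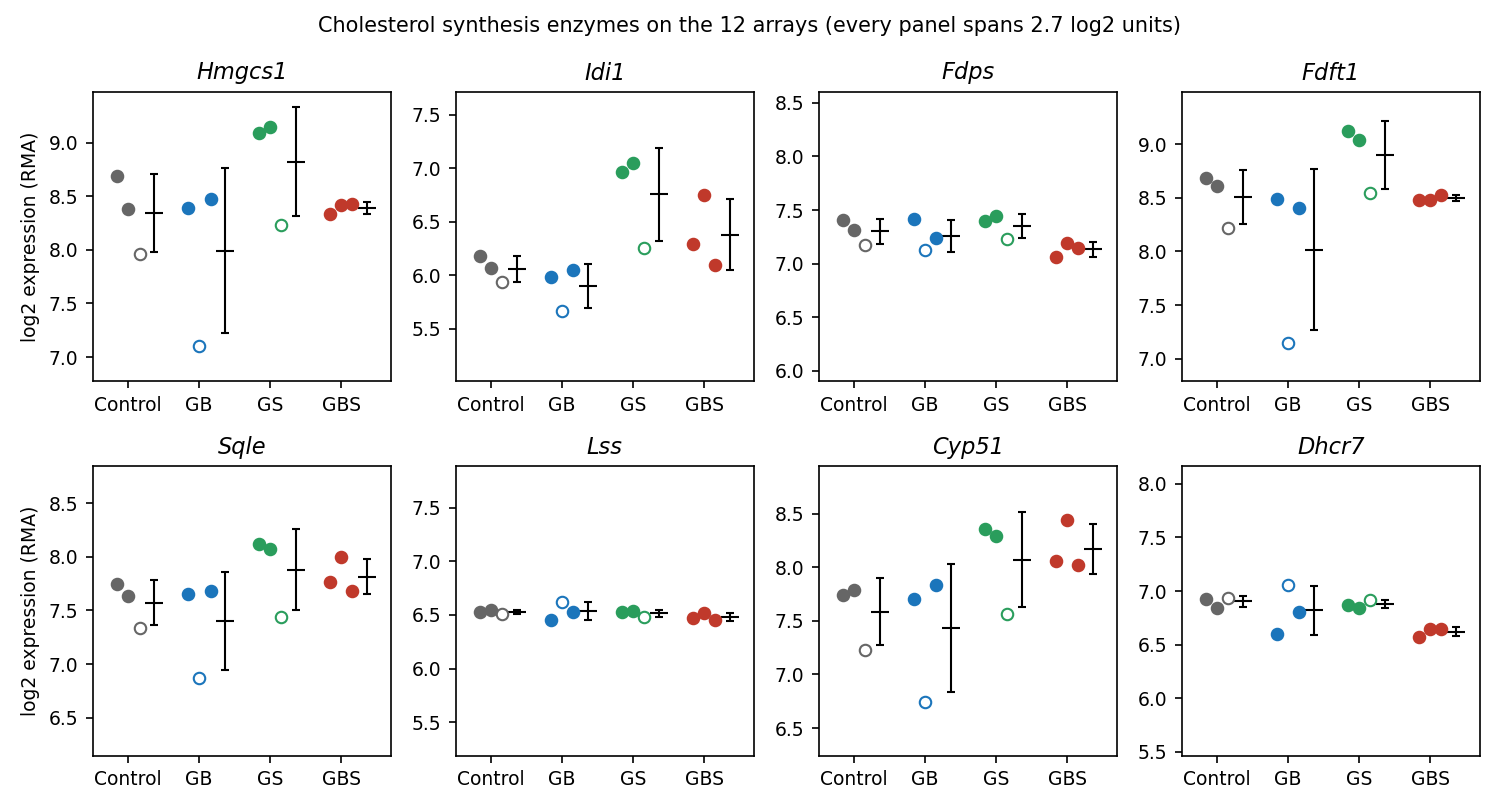
Log2 expression (RMA) of the 8 enzymes, in pathway order, for each array of the 4 genotypes, with the group mean and SD as bars beside the points. Open points are GB replicate 2, GS replicate 3 and Control replicate 3. Each is the lowest of its group for Hmgcs1, Idi1, Fdps, Fdft1, Sqle and Cyp51. For Lss and Dhcr7 the GB open point is the highest instead.

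GBS was set against Control for the effect of the alleles in combination. By limma's test 0 of 8 enzymes were higher and 0 lower, where 11.0% of all genes tested were higher and 4.35% lower. With no adjustment and a threshold of 0.05, 0 enzymes were higher and 1 lower, Dhcr7, against 20.1% and 18.7% of all genes. The arrays did not overlap for Cyp51, above, and Dhcr7, below, which is 1 of 8 each way where 28.8% of all genes lay above and 35.7% below. The median of the 8 differences was 0.02, with 4 positive and 4 negative. GB replicate 2 belongs to neither group here and enters this comparison through the shared estimate of the spread and the filter on dim genes. Without it Cyp51 rose (adjusted p = 0.0467) and Dhcr7 fell (adjusted p = 0.0186), 1 of 8 each way where 23.3% of all genes were higher and 20.1% lower. Over the other single arrays left out, 0 enzymes passed in either direction.

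The single alleles were each set against Control, SmoM2 in GS and the beta-catenin allele in GB. The 3 comparisons with Control share its arrays, so they are not independent of each other. Limma called 0 of 8 enzymes in GS (all genes 0.0211% higher and 0% lower). Before adjustment, at p under 0.05, there were 1 higher, Idi1, and 0 lower, against 3.58% and 2.33% of all genes. The GS arrays of Idi1 alone, 1 of 8, lay above all Control arrays and those of 0 below, where 8.09% and 9.43% of all genes did so. Idi1 entered the test only through GS and GBS arrays, so it lends these counts no support. The median enzyme differed by 0.35 from Control in GS, with 6 of 8 positive, and all genes had a median of -0.02. In GB it called 0 of 8 (all genes 0% both ways), with 0 at an unadjusted p under 0.05 where all genes had 0.909% higher and 0.190% lower. For 0 of 8 did the GB arrays lie all above or all below Control (all genes 3.01% and 1.09%). The median of the enzymes there was -0.16, with 7 of 8 negative, all of them with intervals that span 0. This count of signs rests in part on GB replicate 2. The GB replicates 1 and 3 both lay above the Control mean for Hmgcs1, Sqle and Cyp51. Both lay below it for Idi1, Fdft1 and Dhcr7, and Fdps and Lss had 1 on each side.

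GS minus GB set the highest against the lowest group for Hmgcs1, Idi1, Fdft1 and Sqle. Of the enzymes 0 passed in limma (all genes 0.00704% each way). At an unadjusted p under 0.05, 3 of 8 were higher, Hmgcs1, Idi1 and Fdft1, and 0 lower, against 4.42% and 3.43% of all genes. The arrays did not overlap for Idi1 and Fdft1, 2 of 8 above and 0 below where 4.45% and 5.11% of genes did so. Since Idi1 was tested only through GS and GBS arrays, its part in these counts is no support. Hmgcs1 differed by 0.83 ± 0.354 and Idi1 by 0.86 ± 0.219 (SE; adjusted p = 0.486 for both).

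GBS against GS asks what the beta-catenin allele adds to SmoM2, and GBS against GB what SmoM2 adds to the beta-catenin allele. In GBS minus GS limma called 0 of 8 enzymes, where all genes had 3.56% higher and 1.51% lower. Before adjustment, at p under 0.05, there were 0 higher and 1 lower, Dhcr7, where all genes had 10.7% and 7.92%. The differences were negative for 7 of 8 enzymes, all but Cyp51, with a median of -0.24 against -0.03 for all genes. Fdps, Fdft1 and Dhcr7 lay lower in every GBS than in every GS array, 3 of 8 where 12.4% of all genes did so, and 0 lay higher (all genes 16.5%). In GBS minus GB limma called 0 of 8 (all genes 9.60% higher and 3.12% lower) and, before adjustment, at p under 0.05, there were 1 higher, Cyp51, and 0 lower (all genes 21.9% and 19.8%). Sqle, Idi1 and Cyp51 lay higher in every GBS than in every GB array, 3 of 8 where 24.2% of genes did so, and 0 lay lower (all genes 23.7%). Here too, Idi1 was tested only through GS and GBS arrays.

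An interaction term, the effect of the beta-catenin allele with SmoM2 less its effect without, measured how far the combination departs from the sum of the single alleles. Limma called 0 of 8 enzymes (all genes 0.324% higher and 0.00704% lower), and 0 before adjustment, at p under 0.05 (all genes 4.84% and 3.32%). The estimates ran from -0.22 for Idi1 to 0.25 for Cyp51, with standard errors of up to 0.500 for Hmgcs1. The interval of Hmgcs1, -1.18 to 1.03, holds changes of 2-fold in each direction. That of Fdft1 ran from -0.87 to 1.04 and that of Lss from -0.28 to 0.19.

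**Figure D2:**
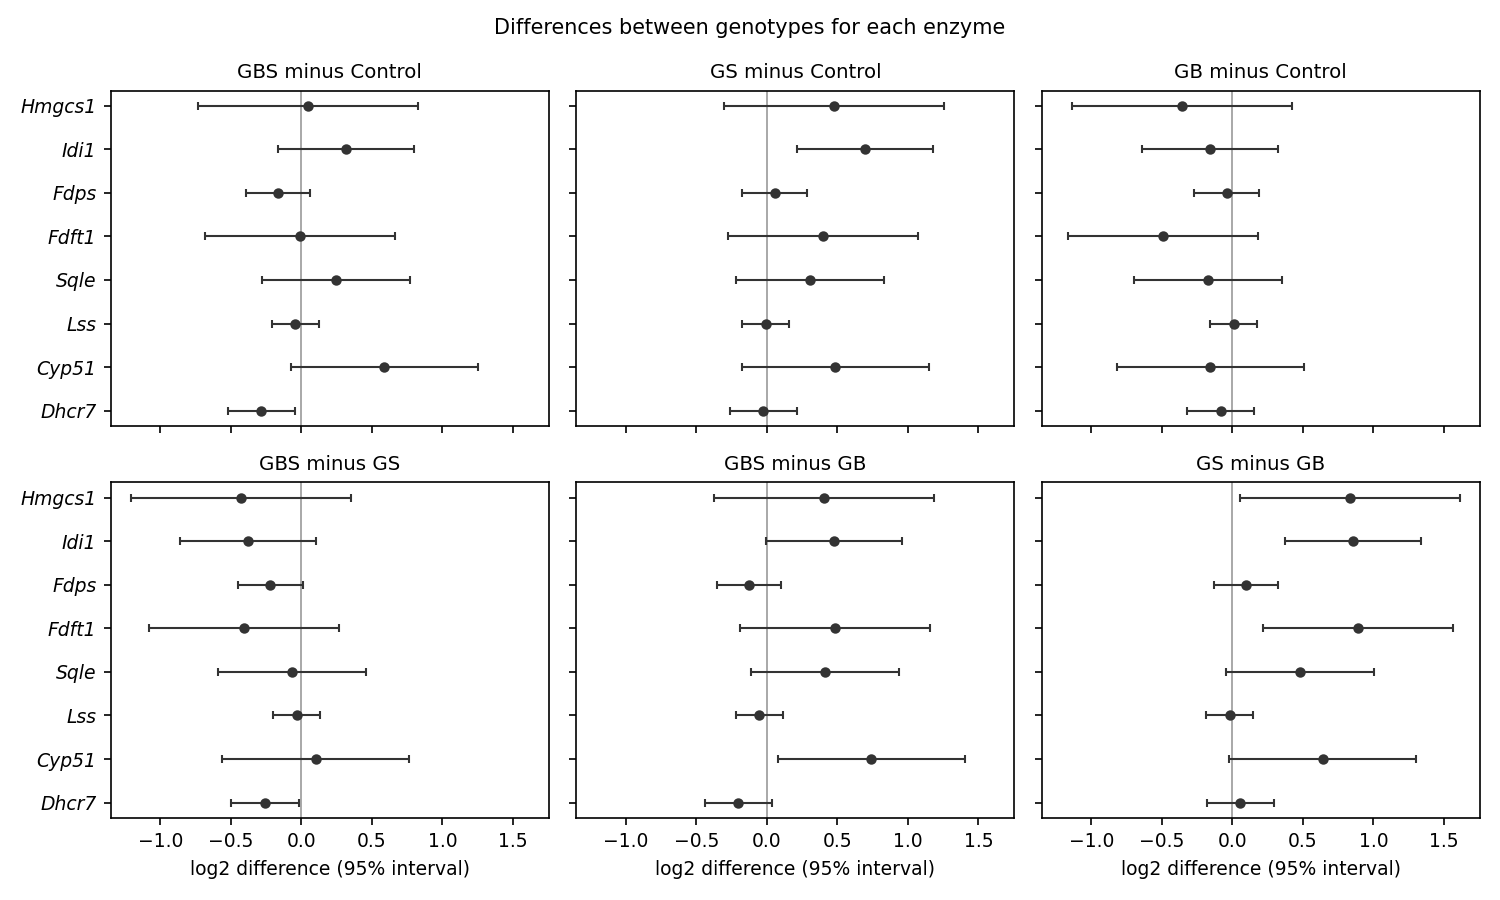
Log2 differences between genotypes for each enzyme, with 95% intervals from the limma fit over all 12 arrays, in 6 comparisons. Intervals are wide for Hmgcs1, Fdft1 and Cyp51 and narrow for Fdps, Lss and Dhcr7; those that leave out 0, such as Idi1 in GS minus Control, did not pass after adjustment over all genes.

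The 3 arrays that deviate together carried much of the spread of 5 enzymes. GB replicate 2, GS replicate 3 and Control replicate 3 were each the lowest array of their group for Hmgcs1, Idi1, Fdft1, Sqle and Cyp51. The same held for Fdps, over a narrower range. The mean of the 5 with the wide range, each centred on its mean over the arrays, was -1.02, -0.12 and -0.39 on those 3 arrays. The other GS arrays stood at 0.61 and 0.60, the GBS arrays between 0.03 and 0.29, and the other GB and Control arrays between -0.08 and 0.08. Lss and Dhcr7 were instead at their highest on GB replicate 2, at 6.62 and 7.06. The low arrays are also those with the highest receptor-gene medians and the lowest neuronal and progenitor markers of their groups. They also had the highest microglia and oligodendrocyte lineage markers of their groups. The part of any of these in the enzyme values was not tested.

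Without the 3 arrays, which leaves 2 arrays each in Control, GB and GS, limma called 5 of 8 enzymes higher in GS than in Control, where 10.1% of all genes were higher. Idi1 rose by 0.88 ± 0.168, Hmgcs1 by 0.58 ± 0.109, Cyp51 by 0.56 ± 0.133, Fdft1 by 0.44 ± 0.0871 and Sqle by 0.41 ± 0.111 (SE; adjusted p = 0.0144 to 0.0395). Over all alternatives the adjusted p of these 5 ran from 0.000206 to 0.993. In GBS minus GS, Hmgcs1, Idi1, Fdps and Fdft1 fell (adjusted p = 0.000795 to 0.0477), 4 of 8 where 9.05% of all genes were lower. In GBS minus Control, Cyp51 rose by 0.41 (adjusted p = 0.0222) and Dhcr7 fell by 0.27 (adjusted p = 0.0328), where 24.0% of all genes were higher and 18.5% lower. Cyp51 also rose in GBS minus GB (0.40, adjusted p = 0.0361), 1 of 8 where 17.6% of all genes were higher. Hmgcs1, Idi1 and Fdft1 rose in GS minus GB (adjusted p = 0.0149 to 0.0325), 3 of 8 where 0.542% of all genes were higher. The arrays were singled out in earlier work on this same table for how they deviate over all genes, so these calls are no independent support. Those of Idi1 also rest on a gene that passed the filter on dim genes only through GS and GBS arrays.

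**Figure D3:**
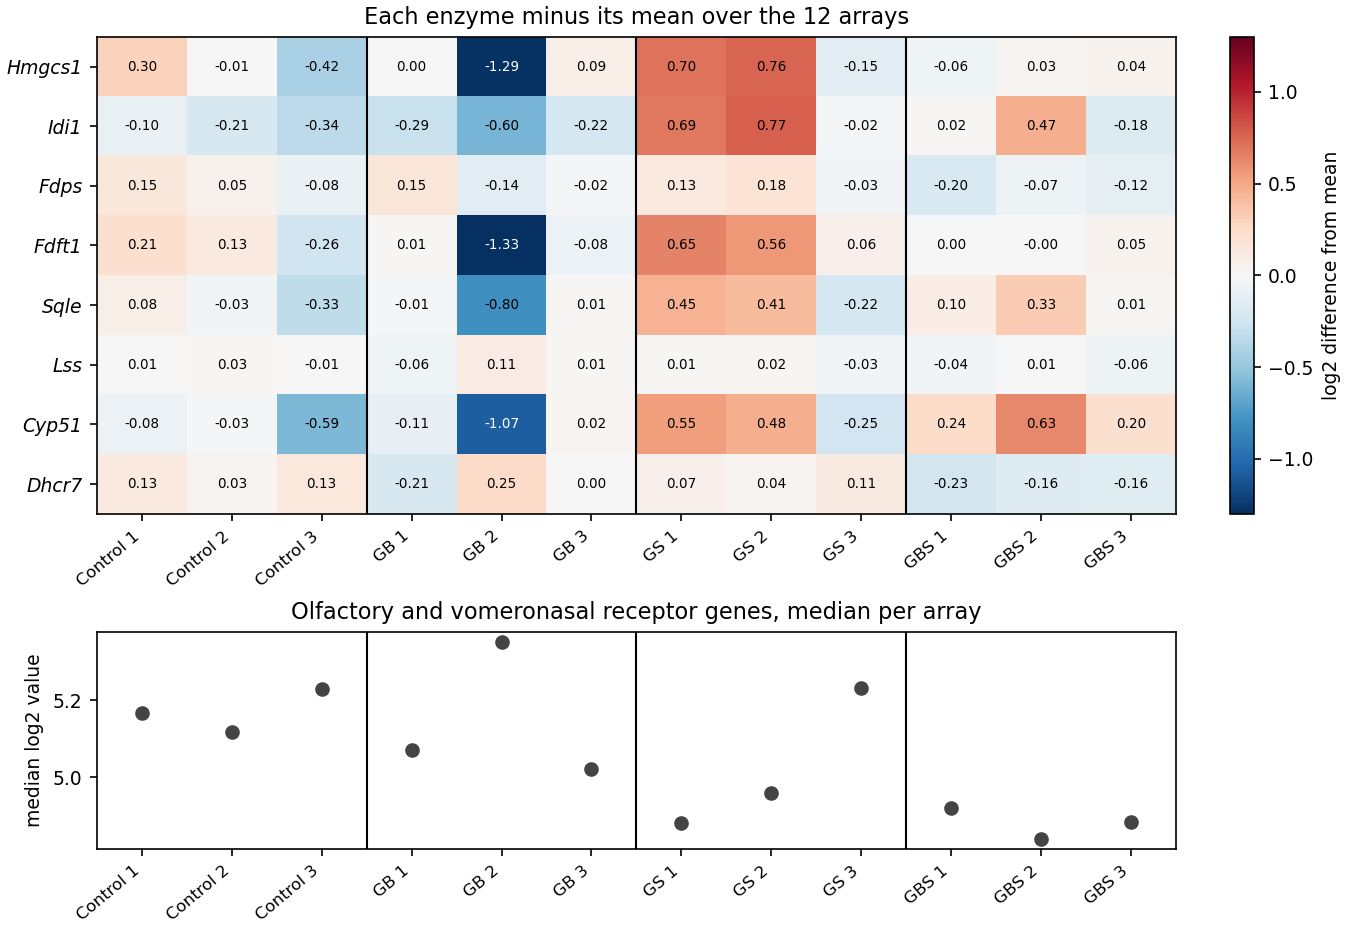
The upper panel gives each enzyme minus its mean over the 12 arrays on the log2 scale, by array. The lower panel gives the median log2 value of the olfactory and vomeronasal receptor genes on the same arrays; GB replicate 2 has the lowest enzyme values for 5 genes and the highest receptor-gene median, 5.35.

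Over the 12 arrays, the 10 pairs among Hmgcs1, Idi1, Fdft1, Sqle and Cyp51 had Pearson correlations of 0.753 to 0.972 (Spearman 0.434 to 0.923), which is a description of arrays that share a genotype and a normalization. Without GB replicate 2 they ran from 0.632 to 0.945, and without the 3 deviating arrays from 0.487 to 0.989. Sqle and Cyp51 kept a correlation of at least 0.894 in each of these. Fdps stood between, at 0.322 to 0.663 with the 5 over the 12 arrays. For deviations from the group means, Fdps ran at 0.703 to 0.836 with the 5, and the 5 among themselves at 0.597 to 0.987. Lss and Dhcr7 ran against the 5 at -0.605 to -0.0715 over all arrays (Spearman -0.573 to 0.105). Without GB replicate 2 they stood at -0.405 to 0.429, with every pair of Lss positive, and without the 3 arrays at -0.0648 to 0.643. Their opposite course thus depended mostly on those arrays, and for Lss on GB replicate 2.

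The genes most like the enzymes in profile were sought over the same 12 arrays, by correlation with the mean of the 8. They were Nlk (0.974), Ptpra (0.972), Sec23a (0.965), Sel1l (0.961), Cdk14 (0.961), Ndufaf5 (0.960), Herc2 (0.958) and Arel1 (0.957). Without the 3 deviating arrays the same 8 stood at 0.897 to 0.956. Such likeness was common: of 13345 genes compared, 247 had a correlation over 0.9 and 1377 over 0.8, and none of the 8 closest is an enzyme of sterol synthesis. That mean includes Fdps, Lss and Dhcr7, which hardly moved. Against the mean of Hmgcs1, Idi1, Fdft1, Sqle and Cyp51, the other tested enzymes of the pathway differed widely. They ran from -0.764 for Tm7sf2 and -0.737 for Mvd to 0.940 for Nsdhl and 0.973 for Sc5d. Without the 3 deviating arrays Tm7sf2 stood at -0.267 and Sc5d at 0.916.

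Of 14 other enzymes of the pathway, 10 were tested. In GBS against Control 1 rose and 0 fell, where 11.0% of all genes rose and 4.35% fell (median 0.23, against -0.10 for all genes). Lbr, a lamin receptor that is also a sterol reductase, rose from 7.14 ± 0.00547 to 7.71 ± 0.370 (SD, n = 3), by 0.57 ± 0.157 (SE; adjusted p = 0.0359). Its GBS values were 7.77, 8.04 and 7.31, and the call ended without any 1 of the Control arrays, GBS replicate 1, GBS replicate 2 or GS replicate 2, and with the replicate number as a block (adjusted p up to 0.151). Erg28, a scaffold of the demethylation enzymes (0.61, adjusted p = 0.0616), the methylsterol oxidase Msmo1 (0.47, adjusted p = 0.106), the mevalonate decarboxylase Mvd (-0.28, adjusted p = 0.130) and the reductase Hsd17b7 (0.06, adjusted p = 0.682) did not pass. Msmo1 had its highest mean in GS, at 7.17 ± 0.420 (SD, n = 3), against 6.43 ± 0.0787 in Control (difference 0.74, adjusted p = 0.645). In the other 5 pairwise comparisons and the interaction, Lbr in GBS minus GB was the only call among the 10 (0.54, adjusted p = 0.0470, up to 0.187 over the alternatives). Of all genes 9.60% were higher in GBS minus GB. Without the 3 deviating arrays 3 of the 10 rose and 0 fell in GBS against Control (all genes 24.0% and 18.5%), and 2 rose in GS (all genes 10.1%).

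Among genes that control SREBP, 9 of 13 were tested. In GBS against Control 1 rose and 0 fell, where 11.0% of all genes rose and 4.35% fell (median 0.03, against -0.10 for all genes). Mbtps1, the protease that makes the first cut in SREBP, rose by 0.39 ± 0.102 (SE; adjusted p = 0.0285). That call ended without Control replicate 2, Control replicate 3, GBS replicate 2 or GBS replicate 3, with the replicate block and with the receptor-gene median as a covariate (adjusted p up to 0.129). Srebf2, the gene of SREBP2, had a mean of 7.64 in Control, 7.57 in GB, and 7.66 in both GS and GBS (GBS minus Control 0.03 ± 0.0799, SE; adjusted p = 0.807). Insig1, a sterol-regulated brake on the pathway, measured 8.20, 8.36 and 7.81 in Control, 8.40, 7.48 and 8.40 in GB, 8.79, 8.99 and 8.29 in GS and 8.53, 8.58 and 8.40 in GBS. Its GBS arrays lay above all Control arrays, and the difference was 0.38 ± 0.257 (SE; adjusted p = 0.255). Its correlation with the mean of the 5 enzymes that moved together was 0.955, and 0.881 without the 3 deviating arrays. Insig2 (0.45, adjusted p = 0.0812), the ubiquitin ligase gene Mylip (-0.30, adjusted p = 0.124) and the oxysterol receptor gene Nr1h3 (-0.30, adjusted p = 0.132) did not pass.

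Export, transport and storage of sterols had 10 of 13 genes tested. In GBS against Control 1 rose and 3 fell, where 11.0% of all genes rose and 4.35% fell (median -0.08, against -0.10 for all genes). Apoe, the gene of the main apolipoprotein of the brain, fell: it measured 8.16, 8.11 and 8.26 in Control and 7.73, 7.54 and 7.70 in GBS. All GBS arrays lay below all arrays of the other groups, GBS minus Control was -0.52 ± 0.0934 (SE; adjusted p = 0.00562), and the call held under all 24 alternatives. Apoe was also lower in GBS than in GS (-0.39, adjusted p = 0.0361, up to 0.235 over the alternatives, and past the threshold no longer without most single arrays) and than in GB (-0.60, adjusted p = 0.00374). Npc2, which hands cholesterol out of lysosomes, rose by 0.49 ± 0.108 (SE; adjusted p = 0.0141), a call that ended without GBS replicate 2 and with the receptor-gene median as a covariate (adjusted p up to 0.0694). The lipoprotein receptor gene Lrp1 (-0.33, adjusted p = 0.0371) and the exporter gene Abcg4 (-0.31, adjusted p = 0.0459) fell. The Lrp1 call against Control ended without any 1 of the Control arrays, GS replicate 1 or 2, or GBS replicate 1 or 2. That of Abcg4 ended without any single array but GB replicate 2 or GS replicate 3 (adjusted p up to 0.157 and 0.370). Lrp1 was also lower in GBS than in GS (-0.45, adjusted p = 0.0174) and than in GB (-0.32, adjusted p = 0.0454). Apoe and Lrp1 were the 2 of 10 called lower in each, where 1.51% and 3.12% of all genes were lower. In the interaction Apoe had -0.48 and Lrp1 -0.45 (adjusted p = 0.265 and 0.283).

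Fatty acid synthesis, whose genes answer to SREBP1 and SREBP2, had 12 of 12 genes tested. In GBS against Control 3 rose and 1 fell, where 11.0% of all genes rose and 4.35% fell (median 0.20, against -0.10 for all genes). Elovl5, an elongase of polyunsaturated fatty acids, measured 7.17, 7.31 and 7.16 in Control, 7.36, 7.07 and 7.48 in GB, 7.85, 7.69 and 7.47 in GS, and 7.84, 8.33 and 8.0 in GBS. Its GBS arrays lay above all Control and GB arrays, and it rose 1.79-fold (0.84 ± 0.152, SE; adjusted p = 0.00574), under all 24 alternatives. Acly, which makes cytosolic acetyl-CoA, rose by 0.50 (adjusted p = 0.0191), and the desaturase gene Fads1 by 0.54 (adjusted p = 0.0229). Both lost their calls without Control replicate 1, Control replicate 3 or GBS replicate 2, Fads1 also without GBS replicate 3 (adjusted p up to 0.117 and 0.209). Against them Me1, the malic enzyme that supplies NADPH, fell by 0.60 (adjusted p = 0.0451), a call that ended without any single array but GB replicate 2, GS replicate 1 or GS replicate 3 (adjusted p up to 0.194). Acss2, which makes acetyl-CoA from acetate, was -0.13 (adjusted p = 0.286). In GS against Control 0 of the 12 passed in limma (all genes 0.0211% higher and 0% lower). There 11 of 12 differences were positive, and the median was 0.31, against -0.02 for all genes.

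The isoprenoid branch, which uses the products of Fdps for protein prenylation and dolichol, had 6 of 9 genes tested. In GBS against Control 0 passed in limma, where 11.0% of all genes rose and 4.35% fell (median 0.46, against -0.10 for all genes). Nus1 (0.74, adjusted p = 0.160), Ggps1 (0.64, adjusted p = 0.10), Pggt1b (0.55, adjusted p = 0.0763) and Fnta (0.38, adjusted p = 0.128) had positive differences with wide errors. Without the 3 deviating arrays 4 of the 6 tested rose, where 24.0% of all genes did.

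**Figure D4:**
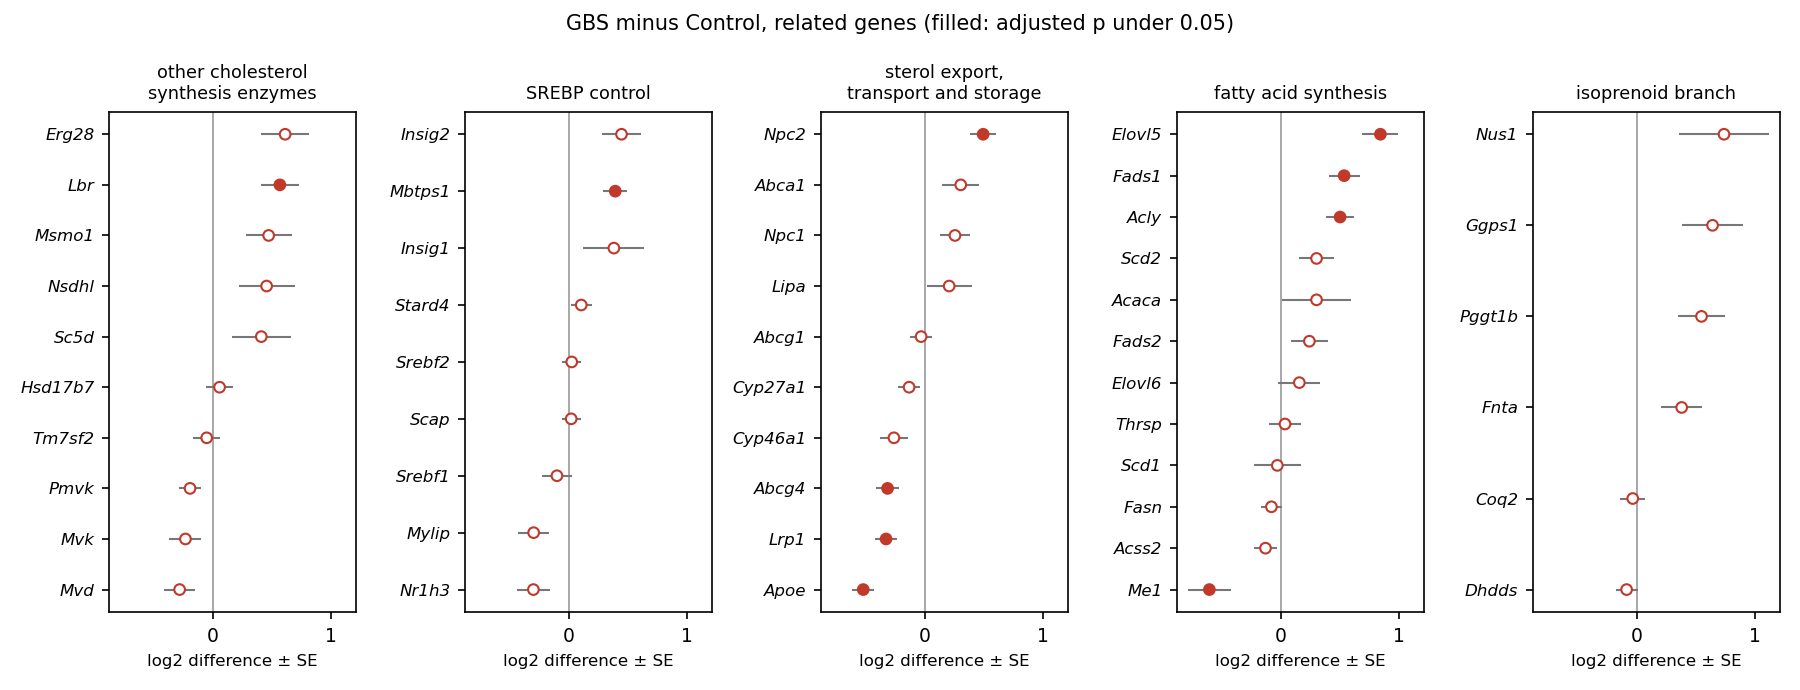
Log2 difference of GBS minus Control with its standard error for the tested genes of 5 related lists; filled points passed an adjusted p under 0.05. Most points are open in every list, and Apoe at -0.52 and Elovl5 at 0.84 are the calls that held under all alternatives.

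Targets of both pathways were read on the same arrays. Against Control, Ptch1, the SHH receptor and target, rose 2.69-fold in GS (adjusted p = 0.00164) and 5.22-fold in GBS (adjusted p = 3.87e-06). Gli1, another SHH read-out, did not pass in GS (-0.10, adjusted p = 0.720) or in GBS (0.32, adjusted p = 0.106). Axin2, a WNT feedback gene, rose by 1.78 in GBS (adjusted p = 2.42e-05) and did not pass in GB (0.73, adjusted p = 0.494). Lef1, another WNT read-out, rose by 2.27 in GBS (adjusted p = 3.34e-05) and did not pass in GB (0.82, adjusted p = 0.909). Mki67, a marker of dividing cells, rose by 2.37 in GBS (adjusted p = 0.000302). The mean of 11 proliferation genes ran from 8.25 to 8.99 in GBS against 6.93 to 7.07 in Control. Of the 11, 8 rose, where 11.0% of all genes rose and 4.35% fell in GBS against Control. Progenitor markers averaged 8.27 to 8.39 against 7.42 to 7.55, with 6 of 8 higher and 1 lower, and neuronal markers 8.31 to 9.09 against 9.12 to 9.47, with 0 of 10 higher and 2 lower. The part of these shifts in the enzyme values was not tested.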

How the data were processed

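The authors' deposited table holds log2 values. RMA and Affymetrix Expression Console are named in the submitters' processing notes. Versions and probe set library were not given in any source used here. The log2 scale was taken from the range, 2.82 to 13.83. RNA was isolated with Trizol and labelled with biotin, per the labels' protocols. Of 35556 probe sets, 21789 had 1 symbol in a platform annotation, 21698 of them updated by gene identifier to RefSeq (GRCm38.p6). Each of 19938 genes was represented by its brightest probe set on average. Genes past the 40th percentile of an array in 3 or more arrays were tested (14195 genes, all 8 enzymes among them).

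limma 3.58.1 (lmFit, eBayes) in R 4.3.3 fitted 1 mean per genotype to all 12 arrays, with 8 residual and 2.9 prior degrees of freedom. Adjusted p is Benjamini-Hochberg over all genes tested in that comparison, two-sided, with a threshold of 0.05. The fit was tested on simulated data whose noise was independent between genes and arrays. Arrays that deviate together, as seen here, were not simulated, so that test does not cover them. Errors beside differences are standard errors (SE), and beside means standard deviations (SD). The number of arrays limits the precision.

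The enzymes, the lists, the rule for names and most alternatives were chosen with earlier results of these data known. Named besides the enzymes were, per list, the 4 lowest adjusted p in GBS minus Control, the 2 lowest in the interaction and calls against the list. Srebf2, Insig1, Ptch1, Axin2, Mki67 and the 8 genes most alike were named too. Gli1 and Lef1 are given as the other genes of the read-out list. Lists were described by counts and medians, with no test. Same-numbered replicates did not deviate together (7 of 18 pairs over 0.1), so the replicate number is an alternative only.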

Additional observations from a re-analysis of the deposited data

How the results depend on the processing

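All of the 8 enzymes missed the threshold in all 7 comparisons with no dim-gene filter, a stricter one at the 60th percentile, averaged probe sets, quantile normalization, centring on array medians, limma's trend and robust settings, sex as a covariate, and the replicate block, which called 0 enzymes in each comparison. Idi1 and Lss lay below the filter at that 60th percentile and have no value there. Counts moved elsewhere. With array weights, whose estimate stopped before it converged, 1 enzyme was higher and 2 lower in GBS minus Control, 5 higher in GS minus Control, 6 lower in GBS minus GS, 5 higher in GS minus GB, and 1 lower in the interaction. Of all genes, that setting called 25.4% higher and 29.1% lower in GBS minus Control, 29.6% higher in GS minus Control, 13.1% lower in GBS minus GS, 9.43% higher in GS minus GB and 4.68% lower in the interaction. With only the groups compared, 1 was higher and 1 lower in GBS minus Control (all genes 24.4% and 21.8%). Without the 3 deviating arrays, 1 was higher and 1 lower in GBS minus Control, 5 higher in GS minus Control, 4 lower in GBS minus GS, 1 higher in GBS minus GB and 3 higher in GS minus GB. Leaving out 1 array at a time gave 0 to 1 higher and 0 to 1 lower in GBS minus Control and 0 in all other comparisons. The receptor-gene median as a covariate, added after the data were seen, gave 3 lower in GBS minus Control (all genes 7.37%) and 5 lower in GBS minus GS (all genes 8.89%). There Hmgcs1 and Sqle turned to -0.94 (adjusted p = 0.0121) and -0.43 (adjusted p = 0.0422) in GBS minus Control. Receptor-gene medians of GBS and Control do not overlap, so that setting extrapolates. The cause of these moves was not tested. Of 1322 single estimates for the enzymes under the alternatives, 93 changed sign without a call. Only 3 arrays per genotype limit what can be seen.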
